A study of Drosophila melanogaster with 2 samples.

Results

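Mitochondrial ribosomal protein genes were examined for promoter binding by a CG32121-eGFP fusion protein, mapped by chromatin immunoprecipitation with sequencing (ChIP-seq) in whole Drosophila melanogaster pupae. The members were chosen by symbol, as the protein-coding genes of Ensembl release 115 whose names begin with mRpL or mRpS. They were 73 of the 13945 protein-coding genes on the main chromosome arms (X, 2L, 2R, 3L, 3R and 4), with 47 named for the large and 26 for the small ribosomal subunit. The family was also selected on its binding in earlier results of these data, so its counts are given as a description and were not tested. A gene counted as bound if at least 1 summit of the authors' conservative peak list fell no further than 500 bp from one of its transcription start sites (TSSs).

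The data came from 1 group of 2 biological replicates, both 2-day-old pupae of a strain with an insertion that makes CG32121 fused to enhanced green fluorescent protein, immunoprecipitated with an anti-GFP antibody. Sex was not collected, per the labels, and neither the promoter driving the fusion nor the number of animals pooled is stated in the labels. Every animal carried the fusion, and a control library was not analysed here, which leaves no groups to set against each other. Each peak has a signal assigned by the authors on a scale that is not given, and the number of reads behind it is unknown. That signal is used below only to describe and rank peaks. Intervals on shares cover counting error only.

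Mitochondrial ribosomes translate the few proteins encoded by mitochondrial DNA, which are subunits of the respiratory chain and of ATP synthase. All of their proteins are encoded in the nucleus, made in the cytoplasm and imported, so a large set of scattered nuclear genes has to supply 1 machine. Many housekeeping genes of the fly are arranged head to head, meaning that they start back to back with another gene and share the DNA between the starts.

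The DNA at the summits of 8 bound members is shown because the strong sites among them carry the highest signals of the family. The windows run from 100 bp before to 100 bp after the summit, on the strand of the member, 5′ to 3′. They are the members of highest signal except mRpL41 and mRpL18, whose sequences are not shown. The positions in dm6, read from the RefSeq copy of that genome, are mRpS23 (chr2L:13835354-13835554, minus strand), mRpS10 (chr3R:15229455-15229655, plus strand), mRpL23 (chr3L:2373509-2373709, minus strand), mRpL20 (chr3L:13018057-13018257, minus strand), mRpL24 (chr2L:4945392-4945592, minus strand), mRpS2 (chr2L:4850463-4850663, minus strand), mRpS24 (chr3R:24163721-24163921, minus strand), mRpL32 (chr3R:31252656-31252856, plus strand). Capitals mark matches on either strand to any of 10 short sequences searched, namely TATCGATA (the DNA replication-related element), its inner part ATCGAT, GGTCACAC (the motif 1 core of fly promoters), the E-boxes CACGTG and CAGCTG, the Ets-type GGAAGT, the GAGA element GAGAG, the TATA box TATAAA, and the sequences ACAGTG and AAAATA. Matches to TATCGATA and ATCGAT overlap, and others can run together.
mRpS23: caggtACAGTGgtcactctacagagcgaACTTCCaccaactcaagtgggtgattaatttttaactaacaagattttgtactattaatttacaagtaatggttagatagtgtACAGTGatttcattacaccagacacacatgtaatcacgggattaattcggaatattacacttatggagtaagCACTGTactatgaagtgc
mRpS10: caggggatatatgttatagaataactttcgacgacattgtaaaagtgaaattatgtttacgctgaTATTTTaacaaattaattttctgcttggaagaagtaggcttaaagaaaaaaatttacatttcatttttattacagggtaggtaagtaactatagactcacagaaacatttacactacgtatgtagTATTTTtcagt
mRpL23: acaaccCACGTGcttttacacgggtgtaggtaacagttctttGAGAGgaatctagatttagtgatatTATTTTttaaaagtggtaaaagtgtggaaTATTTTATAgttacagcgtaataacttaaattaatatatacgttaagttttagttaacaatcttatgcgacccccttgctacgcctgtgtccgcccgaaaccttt
mRpL20: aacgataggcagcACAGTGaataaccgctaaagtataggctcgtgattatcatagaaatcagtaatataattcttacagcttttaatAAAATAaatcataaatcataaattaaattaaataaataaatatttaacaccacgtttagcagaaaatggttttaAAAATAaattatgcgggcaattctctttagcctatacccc
mRpL24: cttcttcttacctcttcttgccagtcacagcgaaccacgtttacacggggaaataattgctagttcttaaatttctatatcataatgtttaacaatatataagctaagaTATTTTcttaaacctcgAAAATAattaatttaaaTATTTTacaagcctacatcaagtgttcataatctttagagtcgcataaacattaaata
mRpS2: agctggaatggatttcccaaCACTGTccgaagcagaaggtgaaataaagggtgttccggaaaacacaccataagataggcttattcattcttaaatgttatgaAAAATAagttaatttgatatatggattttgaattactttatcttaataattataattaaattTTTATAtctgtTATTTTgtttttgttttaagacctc
mRpS24: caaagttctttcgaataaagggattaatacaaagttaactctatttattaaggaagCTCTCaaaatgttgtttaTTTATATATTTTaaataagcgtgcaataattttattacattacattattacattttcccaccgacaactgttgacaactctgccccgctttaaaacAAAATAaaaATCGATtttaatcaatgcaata
mRpL32: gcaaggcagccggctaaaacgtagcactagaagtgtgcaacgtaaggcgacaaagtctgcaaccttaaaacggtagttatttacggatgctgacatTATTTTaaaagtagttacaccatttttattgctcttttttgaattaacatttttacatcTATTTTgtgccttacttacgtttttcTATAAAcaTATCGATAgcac
The windows are rich in A and T, with GC contents between 26.9% (mRpS24) and 36.3% (mRpS23) over the whole window. All but that of mRpS23 hold AAAATA or its reverse complement.

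Promoter binding was found at 25 of the 73 members (34.2%, Wilson 95% interval 24.4 to 45.7), beside 21.5% of all protein-coding genes. The large subunit had 15 bound members of 47 (31.9%, interval 20.4 to 46.2) and the small subunit 10 of 26 (38.5%, interval 22.4 to 57.5), and these intervals overlap widely. Each of the 25 had a summit of its own, and no summit was counted for a pair of members. Most members have a single TSS, and among the 67 that do, 22 were bound (32.8%), beside 15.3% of all genes with 1 TSS.

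The replicates' own thresholded lists gave fewer bound members. In replicate 1, 14 members were bound (19.2%), beside 13.1% of all genes. In replicate 2, 21 members were bound (28.8%), beside 20.5% of all genes. Both lists held 13 members (17.8%), beside 11.9% of all genes. The authors' other thresholded list of the series gave 21 members (28.8%), beside 23.0% of all genes. In each of these lists the family's share stood above the background, but the 95% intervals, from 11.8 to 29.7 for replicate 1, 19.7 to 40 for replicate 2 and for the other list, and 10.7 to 28.1 for both, all hold it.

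Signals at the bound members fell into a strong and a weak group with nothing between them. Above 500 there were 7 members, from 571.2 to 1664, and the other 18 lay at 149.2 or below. Members above 500 made up 28.0% of the 25, beside 8.02% of all 2993 bound genes. The cut of 500 and the edges of the gap were drawn from these same signals, so the gap is empty of members by construction. It held 38.2% of all bound genes. The median signal was 120.8 over the bound members and 138.2 over all bound genes.

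**Figure D1:**
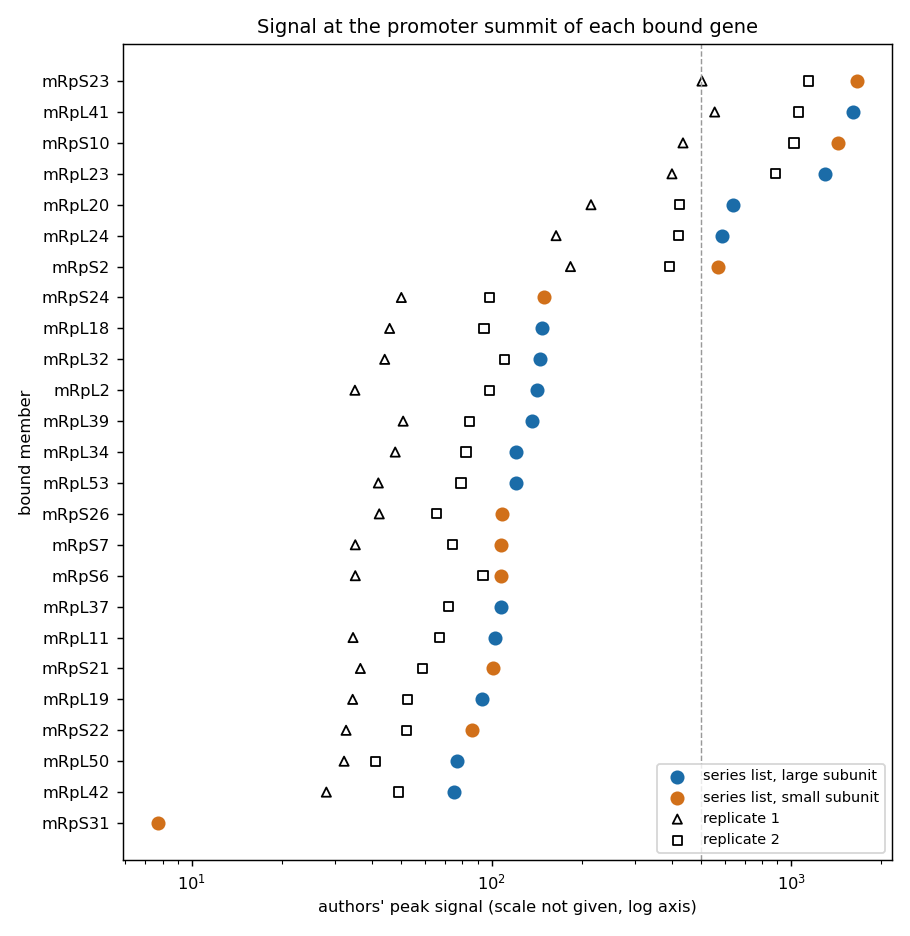
Authors' peak signal on a log axis for each of the 25 bound members, from the series' conservative list (filled circles, coloured by subunit) and in each replicate (open triangles, replicate 1, and open squares, replicate 2; no open symbol where a replicate had no summit within 200 bp). The 7 uppermost members stand above 500, marked by the dashed line, and the rest at 149.2 or below.

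Among the strong small subunit members was mRpS23, a protein numbered above the bacterial series, which had the highest signal of the family at 1664 (503.8 in replicate 1 and 1141 in replicate 2), rank 11 among the 7676 peaks. Its peak lay on 2L at 13835305 to 13835634, and the summit was 382 bp upstream of its TSS and 110 bp upstream of that of CenG1A, which encodes an Arf GTPase-activating protein. Next in this subunit came mRpS10, related to a bacterial protein in the head of the small subunit. Its signal was 1436 (435.4 in replicate 1 and 1022 in replicate 2) at a summit 110 bp upstream of the start on 3R. The head-to-head partner of mRpS10 is Art3, an arginine methyltransferase gene. At mRpS2 the signal was 571.2 (183.4 in replicate 1 and 392.8 in replicate 2), 144 bp upstream of the start and 78 bp upstream of that of Mon1, a vesicle trafficking gene. In each library these 3 stood above every weak member.

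Of the large subunit, mRpL41 reached 1607 (555.4 in replicate 1 and 1056 in replicate 2) at a summit 141 bp upstream of its TSS, in a peak on 2R at 15217591 to 15217904. It was the only strong member without a head-to-head partner within 500 bp. At mRpL23, whose bacterial relative lines the exit of the nascent chain tunnel, the signal was 1293 (400 in replicate 1 and 888.6 in replicate 2). This summit lay 69 bp downstream of the nearest mRpL23 start, in its 5' UTR, and was the single one of the 25 not upstream of its member. The gene for mRpL20, related to a bacterial assembly protein, stood at 640.8 (214.7 in replicate 1 and 424.0 in replicate 2) and faces Icmt, an isoprenylcysteine methyltransferase gene. The signal at mRpL24, whose bacterial relative starts assembly of the large subunit, was 588.6 (164.2 in replicate 1 and 421.5 in replicate 2), and its partner is betaggt-I, a prenyltransferase subunit gene. All 7 strong members were in both replicates' own lists.

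The weak large subunit members ranged from 147.9 at mRpL18 to 75.1 at mRpL42. Between them stood mRpL32 (144.7), mRpL2, a protein near the peptidyl transferase centre (141.4), mRpL39 (136.2), mRpL34 (120.8), mRpL53 (120.6), mRpL37 (107.2), mRpL11, of the region that binds translation factors (102.6), mRpL19 (93.2) and mRpL50 (76.4). In the small subunit they ran from mRpS24 (149.2) through mRpS26 (108.2), mRpS7 (107.6), mRpS6 (107.5), mRpS21 (101.3) and mRpS22 (85.9) to mRpS31 (7.7). Replicate signals of the weak members with a match were 28.1 to 50.7 in replicate 1 and 40.9 to 110.8 in replicate 2, all below the lowest strong member of the same library (164.2 in replicate 1 and 392.8 in replicate 2). The same members were strong and weak in each library among the 23 with a signal in replicate 1 and the 24 with one in replicate 2. The series' signal that set the groups was derived from both replicates, so this match is not independent of the split.

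Of the 25 bound members, 13 were in both replicates' own lists, 6 in that of replicate 2 only, 1 (mRpS21) in that of replicate 1 only, and 5 in neither. The 6 were mRpL2, mRpL19, mRpL37, mRpL53, mRpS6 and mRpS7, and the 5 were mRpL11, mRpL42, mRpL50, mRpS22 and mRpS31. Over all protein-coding genes, 1665 were in both replicates' lists and 2993 were bound in the conservative list. The same split over all bound genes is not given, so these counts are not shown to be particular to the family. At the 23 members with a summit in both ranked lists within 200 bp, the signal was higher in replicate 2 in 23 cases, with a median ratio of replicate 2 to replicate 1 of 1.97 (range 1.27 to 2.80), beside 1.77 over all promoter summits. No replicate 1 summit was matched at mRpL37.

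The count for mRpS31 rests on a minor summit. Its signal of 7.7 ranked 7516 among the peaks, and neither replicate had a summit within 200 bp. A stronger summit of the conservative list, of 110.9 (replicate 1, 47; replicate 2, 69.5), lay 588 bp upstream of mRpS31 and 131 bp downstream of the start of its partner hzg, outside the window. Without mRpS31 there were 24 bound members (32.9%).

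Near the edges of the rule, the bound members farthest from their summits were mRpS23 at 382 bp, mRpS31 at 377 bp and mRpL2 at 331 bp. Just outside stood mRpS18B, with a summit 638 bp away, mRpL27 at 1108 bp and mRpL49 at 1141 bp. On the global irreproducible discovery rate (IDR), for which the limit was 0.01, the bound members closest to it were mRpL50 at 0.00873, mRpL42 at 0.00716 and mRpL37 at 0.00631. The nearest unbound ones had candidate peaks at 0.0275 (mRpS30), 0.0284 (mRpL38) and 0.0284 (mRpL4). These 3 on each side are named for their closeness to the limit.

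Candidate summits of any IDR within 500 bp were listed at 66 of the 73 members (90.4%), beside 68.8% of all genes. At the 41 unbound members with one, the highest candidate signal was between 8.2 and 85.9, with a median of 42.5. The remaining 7 unbound members had none, namely mRpL14, mRpL15, mRpL30, mRpL33, mRpL36, mRpL40 and mRpS5. Peaks of another thresholded list were present at 3 unbound members. At mRpL4 the signal was 67.8 in replicate 2's own list and 85.9 in the other list of the series, at mRpL43 it was 65.6 in replicate 2's own list, and at mRpL44 it was 65.2 in the other list of the series.

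Most of the family is arranged head to head. An opposite-strand TSS of another protein-coding gene lay within 500 bp upstream at 53 of 73 members (72.6%, Wilson 95% interval 61.4 to 81.5), beside 27.4% of all genes, with close shares in the subunits, 34 of 47 large (72.3%) and 19 of 26 small subunit members (73.1%). This measure uses only the annotation. Of the bound members 23 of 25 (92.0%) were in such a pair, and of the unbound members 30 of 48 (62.5%). Put the other way, 23 of 53 paired members were bound (43.4%, interval 31 to 56.7), beside 34.2% of all paired genes, and 2 of 20 unpaired members (10%, interval 2.79 to 30.1), beside 16.7% of all unpaired genes. The interval of the paired members holds the background of paired genes. The 2 bound members with no partner were mRpL41 and mRpL19.

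The distance between the paired starts was described for bound and unbound members, with no test. Its median was 291 bp for the 23 bound and 145.5 bp for the 30 unbound paired members, while over all paired genes it was 256 bp for bound and 235 bp for unbound ones. With starts at most 100 bp apart 3 of 18 members were bound (16.7%), beside 29.0% of all such genes. With starts over 100 and up to 500 bp apart 20 of 35 were bound (57.1%), beside 35.6% of all such genes. The 3 bound members with close starts were mRpL18, mRpL23 and mRpL2, and the spacing classes were set after the spacings had been seen.

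**Figure D2:**
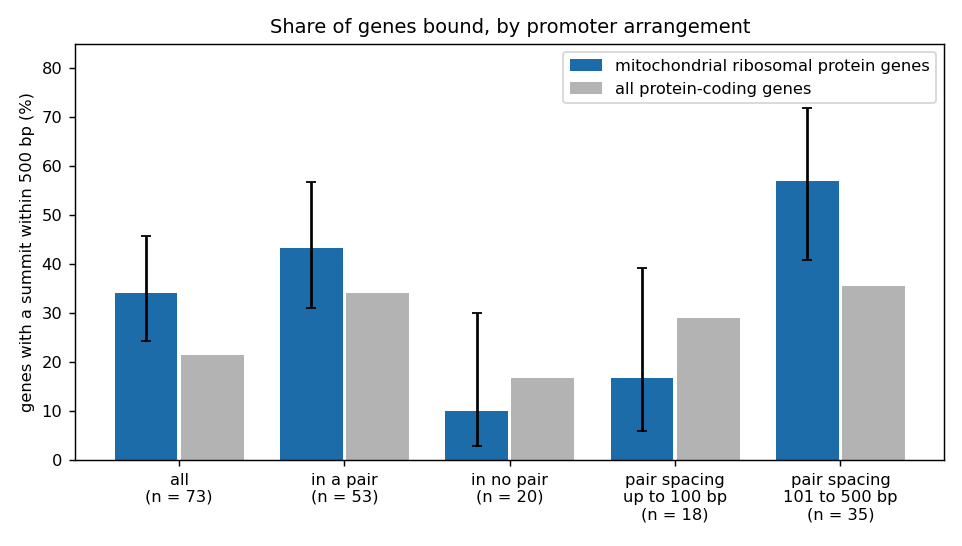
Percentage of genes with a summit within 500 bp of a TSS, for mitochondrial ribosomal protein genes (blue, with Wilson 95% intervals and the number of members below) and for all protein-coding genes (grey), in all genes and by arrangement. The members stood at 34.2% of all 73, 43.4% in head-to-head pairs and 10% outside them, and at 16.7% and 57.1% in pairs with starts up to 100 bp and over 100 and up to 500 bp apart.

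In all 23 bound pairs the summit was also within 500 bp of the partner, which was enough to count the partner as bound. A summit between starts at most 500 bp apart meets this by position alone. Some partners had a higher summit that stood for them, as did AGO1 (200.3) and FoxK (151.7). The summit was upstream of the nearest start of both genes in 19 of 23 (82.6%), beside 72.2% of all bound paired genes. Of these 19 summits, 17 lay outside every protein-coding gene, and those of mRpL2 and mRpL53 lay inside the partner, which has further starts. It was closer to the partner than to the member in 16 of 23 (69.6%), beside 42.5% of all bound paired genes. The closer of the starts was 39 to 147 bp away, with a median of 105 bp, and the median over all bound paired genes was 99 bp. Relative to the members alone, 24 of 25 summits were upstream, by at most 382 bp. The median position of all 25 was 160 bp upstream. The upstream share over all bound genes is not given, so this is not shown to be particular to the family. Its relation to the head-to-head arrangement was not tested.

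**Figure D3:**
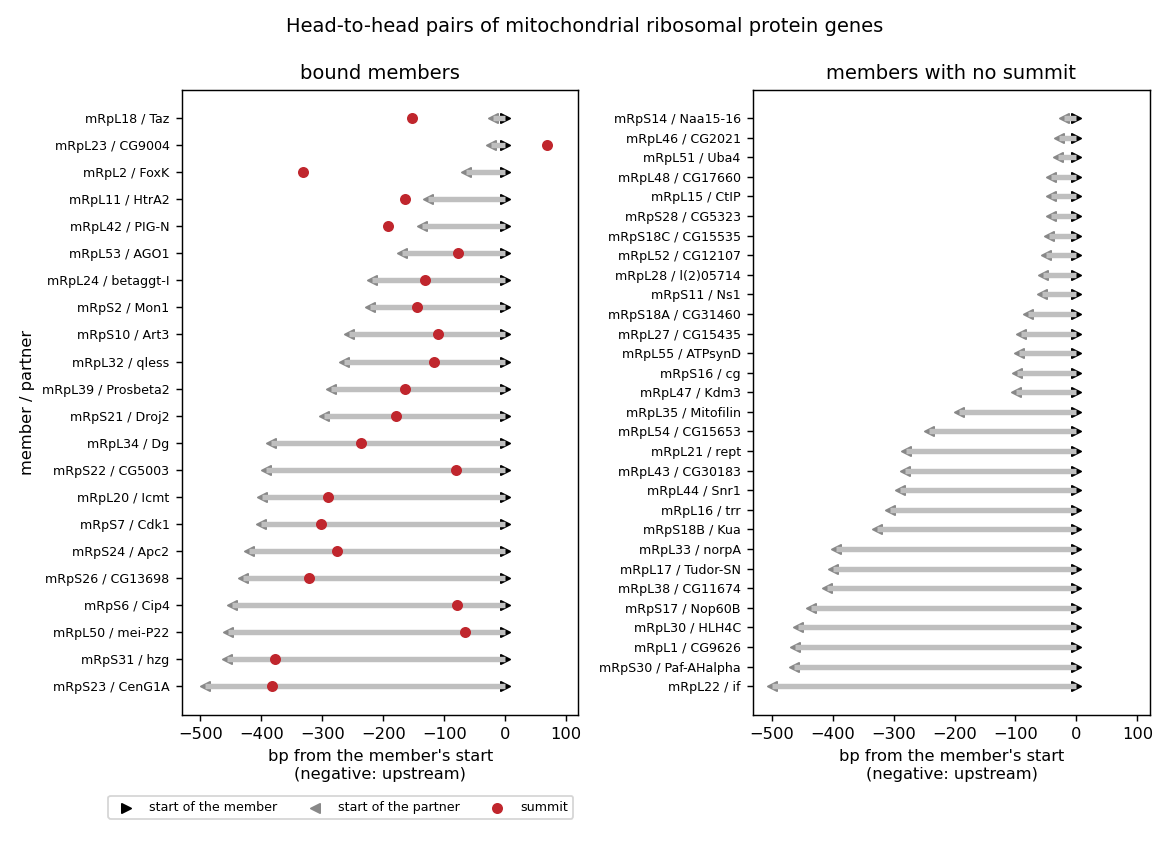
Head-to-head pairs drawn to scale in bp from the member's start, with the member's start (black), the nearest upstream opposite start of the partner (grey) and the summit (red), for 22 of the 23 paired bound members (left, without mRpL37) and 30 unbound members (right), sorted by spacing. Most summits fall between the starts drawn. Those of mRpL2, mRpL11, mRpL18, mRpL23 and mRpL42 fall outside them, that of mRpL2 105 bp upstream of a more distant FoxK start. For mRpL23, which has more than 1 start, the summit is placed from the nearest start and the spacing is from another.

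The partners of the bound members belong to many processes. Mitochondrial ones are HtrA2, a mitochondrial protease gene (beside mRpL11, signal 102.6), Taz, which remodels the mitochondrial lipid cardiolipin (mRpL18, 147.9), and qless, of coenzyme Q synthesis (mRpL32, 144.7). Regulators are Cdk1, the mitotic kinase gene (mRpS7, 107.6), AGO1, of the microRNA pathway (mRpL53, 120.6), FoxK, a forkhead transcription factor gene (mRpL2, 141.4), and Apc2, of the Wnt pathway (mRpS24, 149.2). The others with a known product include Prosbeta2, a proteasome subunit gene (mRpL39, 136.2), Dg, which encodes dystroglycan (mRpL34, 120.8), Droj2, a DnaJ chaperone gene (mRpS21, 101.3), Cip4, a membrane-bending protein gene (mRpS6, 107.5), PIG-N, of glycolipid anchor synthesis (mRpL42, 75.1), and mei-P22, of meiotic recombination (mRpL50, 76.4). CG9004, CG13698 and CG5003 faced mRpL23, mRpS26 and mRpS22. Which gene of a pair a summit relates to cannot be told apart.

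Among the 30 unbound paired members, 2 had a bound partner, a count with no share over all unbound paired genes beside it. The 2 members were mRpS18B, which faces Kua 328 bp away, and mRpL22, which faces if, an integrin gene, 499 bp away. The partners' summits lay beyond 500 bp from these members.

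By annotation, 19 of the 25 summits lay outside every protein-coding gene. The other 6 were in the 5' UTR of mRpL23 itself, of Taz and of HtrA2, in introns of FoxK and AGO1, and in a coding exon of PIG-N. None lay in the coding sequence of a member. Shares over all promoter summits are not given for these places, so the counts only describe the members.

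Binding was spread over 4 of the 5 arms with members. On 3L 8 of 17 were bound (47.1%, interval 26.2 to 69), beside 22.7% of all genes there. On 3R it was 8 of 21 (38.1%, interval 20.8 to 59.1), beside 21.7%. On 2R it was 5 of 12 (41.7%, interval 19.3 to 68), beside 21.6%, and on 2L 4 of 12 (33.3%, interval 13.8 to 60.9), beside 20.2%. The intervals of 3R, 2R and 2L hold their background. On X it was 0 of 11 (interval 0 to 25.9), beside 21.3% of all genes on X. The unbound X members include mRpL14, mRpL16, mRpL22, mRpS14 and mRpS25. With 11 genes the count does not set X apart from its background.

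Proteins numbered as in bacteria (up to L36 and S21) and those numbered above that were counted separately. With bacterial numbers 14 of 42 were bound (33.3%, interval 21 to 48.4) and with higher numbers 11 of 31 (35.5%, interval 21.1 to 53.1), so the intervals overlap. In mammals the proteins corresponding to mRpS24 and mRpL47 are relatives of bacterial ones despite their numbers, and those corresponding to mRpS30 and mRpS18A sit in the large subunit. Of these 4 only mRpS24 was bound. The stalk genes mRpL10 and mRpL12, whose bacterial relatives recruit translation factors, were unbound, as were all 3 mRpS18 genes and mRpS29, which encodes a GTP-binding protein.

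Base composition at the summits was low in GC. Within 50 bp of the summit the median was 26.7% GC over the 25 bound members (range 15.8 to 59.4), beside 35.6% over all bound genes and 31.7% over all bound paired genes. The 7 strong members had 16.8% to 29.7%, with a median of 22.8%, beside 28.7% over all bound genes above 500. The 18 weak members had a median of 28.7%, and 10 of them were under 30%, so the groups overlap. From 250 bp upstream to 50 bp downstream of the TSS the median was 32.9% in bound members (quartiles 30.9 and 36.2) and 35.9% in unbound members (quartiles 32.1 and 39.3), against 38.2% in all bound genes and 37.9% in all unbound genes.

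**Figure D4:**
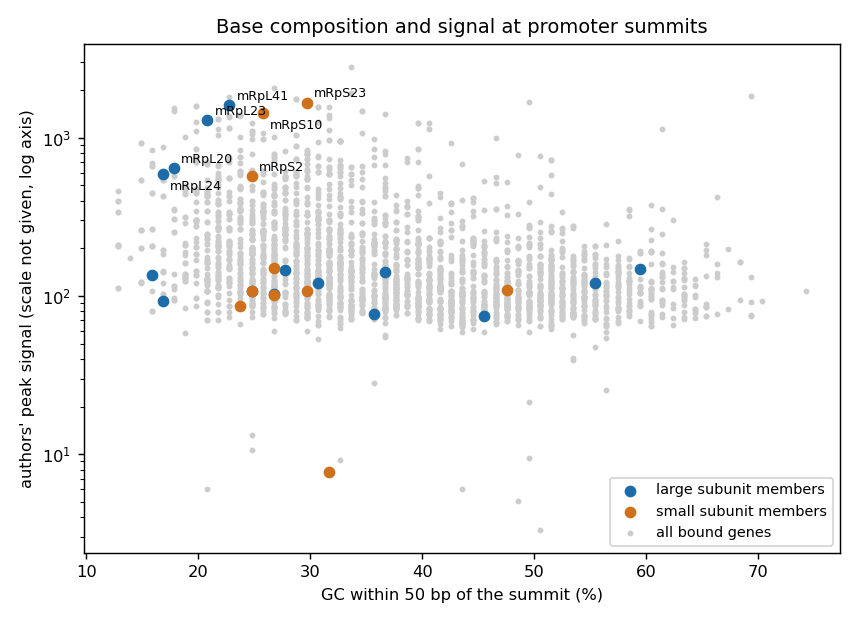
GC content within 50 bp of the summit and the authors' peak signal (log axis) for the 25 bound members, coloured by subunit, and for all 2993 bound genes (grey). The 7 named members above 500 lie at 16.8% to 29.7% GC, and mRpL18, mRpL53, mRpS26 and mRpL42, all weak, have the highest GC.

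The short sequences searched were mostly rare at the members. AAAATA occurred within 50 bp of 16 of 25 summits (64.0%), beside 31.7% of all promoter summits. It was in 32.3% of windows of that length placed 160 bp upstream of every gene. Of the 7 strong members 6 held it, a count with no share over all promoter summits above 500 beside it. This sequence has no G or C, and the members' GC was lower than that of all bound genes (above). The part of base composition in these counts was not tested. ACAGTG was at 3 summits (12%, beside 6.73% of promoter summits and 3.87% of all promoters), TATAAA at 4 (16.0%, beside 16.7% and 20.3%), GAGAG at 2 (8%, beside 17.0% and 12%) and GGAAGT at 1 (4%, beside 3.04% and 3.23%). The other 5 were at 0 of 25, which allows a share of up to 12% each. Over promoter summits and over all promoters TATCGATA was at 1.55% and 1.12%, and ATCGAT, its inner part, at 4.49% and 4.43%. GGTCACAC was at 0.967% of promoter summits and 0.638% of all promoters. The E-box CACGTG was at 1.07% and 1.18%, while the other E-box, CAGCTG, was at 5.46% and 3.92%. Counts of 25 summits cannot show such small shares.

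Other genes of mitochondrial translation and RNA handling were set beside the family. Of 44 matched genes 8 were bound (18.2%), near the 21.5% of all genes. They were PNPase, for an RNA-degrading enzyme (1903), SLIRP2 (749.7) and SLIRP1 (182.0), for RNA-binding proteins, GatA, for a subunit of the glutaminyl-tRNA amidotransferase (216.2), mIF2, for an initiation factor (139.5), and scu (118.2), mTerf5 (94.9) and CysRS-m (79.1). On that list tko and bonsai, ribosomal protein genes of the organelle without an mRp symbol, were unbound, as were mEFTu1, mEFG1, mIF3 and PolrMT. Genes for such proteins under other names and outside the list were not counted. In head-to-head pairs were 24 of these 44 (54.5%), and 4 of the 24 were bound (16.7%), against 23 of 53 paired members (43.4%) and 34.2% of all paired genes.

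Cytoplasmic ribosomal protein genes had 41 of 88 bound (46.6%, beside 21.5% of all genes) in a list chosen by symbol, with a median signal of 117.4, close to the 120.8 of the mitochondrial family. Signals above 500 were found at 7 of 25 bound mitochondrial members and at 0 of 41 bound cytoplasmic ones, which allows a share of up to 7.32%. Paired genes were 53 of 73 mitochondrial (72.6%) and 34 of 88 cytoplasmic members (38.6%). Of the paired cytoplasmic genes 19 of 34 were bound (55.9%), a higher share than the 43.4% of paired mitochondrial members, beside 34.2% of all paired genes. These differences were not tested.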

How the data were processed

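The 2 libraries were analysed through 7 of the authors' peak lists in dm6, the build given in the labels. The signal of a peak is used as deposited, on a scale not stated. The −log10 values used are the global IDR deposited by the authors in the ranked lists. Every peak of the conservative list had an IDR of 0.01 or below. For the aligner and the peak caller, names and versions were not given in the sources used. Depth is unknown.

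TSSs were those of all transcripts of protein-coding genes in Ensembl release 115. The highest signal among summits within 500 bp of any TSS stood for a gene. Replicate signals are those of the nearest summit within 200 bp in a replicate's ranked list. Base composition and motifs were read within 50 bp of summits. Members, lists and classes, among them signals above 500 and the spacing classes, were chosen with earlier results of these data known. Named with values were all bound members with their partners (1 partner gene is not reported here), and unbound members with a summit in another thresholded list, with a bound partner, or nearest to a limit. Other unbound members are named without values. Sequences are those of up to 8 bound members of highest signal, with members on 2R left out. The other list was fixed by symbol, and 44 of 45 names matched.

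No test was made. The counting of bound and paired genes was tested on simulated data. Python 3.11.15, NumPy 2.4.6, pandas 2.3.3 and SciPy 1.17.1 were used.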

Additional observations from a re-analysis of the deposited data

How the results depend on the processing

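Counts of bound and paired members in this section are out of 73, while the percentages set beside them are of all genes. The 25 bound members (15 large and 10 small subunit) became 14 (9 and 5) at a global IDR of 0.001 or below. The share of all genes bound at that limit was 12.9%. The cause of the drop was not tested. These 14 still include mRpS31 (IDR 0.000762), which rests on a minor summit of signal 7.7. With 1 replicate left out there were 14 to 21 (8 to 14 large and 6 to 7 small), the lowest without replicate 2. With a window of 250 bp 18 of the 73 members were bound (13 large and 5 small), beside 17.6% of all genes. With candidate peaks of any IDR it was 66 of the 73 (90.4%), beside 68.8%. A pair spacing of 250 bp left 25 paired members, 8 of them bound, while 14.2% of all genes were paired. Windows of 1000 bp and any base of the peak in place of the summit each gave 26 of the 73, beside 25.5% and 23.1%. The other thresholded list gave 21 of the 73 (28.8%), beside 23.0%. Leaving out summits with a signal under 20, a choice made after seeing the data, gave 24 of the 73 (32.9%), beside 21.4%. The median signal was 94.3 to 107.4 with 1 replicate left out and 360.2 at the stricter IDR limit. The latter value falls in the gap between the strong and weak groups, where no member stood. Motifs were also read with 100 bp on each side of the summit in place of 50. The members' share is given beside that of all promoter summits. AAAATA was at 19 of 25 (76%, beside 49.3%), TATAAA at 11 (44%, beside 28.8%) and CAGCTG at 5 (20%, beside 11.6%). ACAGTG was at 5 (20%, beside 15.1%) and GAGAG at 4 (16%, beside 31.9%). ATCGAT was at 3 (12%, beside 9.32%) and GGAAGT at 2 (8%, beside 5.80%). TATCGATA, a longer motif, was at 1 (4%, beside 3.49%), as was GGTCACAC (beside 2.38%) and, of the E-boxes, CACGTG (beside 2.28%). With 25 summits and unknown depth, small shares cannot be resolved.
No paired analysis was possible because the data hold 1 group and no test was made.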

Other observations

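Bound genes that rest on a minor summit alone, as mRpS31 does, were rare. Of 2993 bound genes, 9 (0.301%) had no promoter summit with a signal of 20 or more, and mRpS31 was the 1 member among them. Of 2896 promoter summits, 31 had no summit within 200 bp in either replicate's ranked list. The series' ranked list also held 172 peaks on the 6 arms that met the IDR limit and were not in the conservative list. Within 500 bp, 0 of the 73 members had a summit of these. The share over all genes is not given, so this count says nothing particular about the family.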
